A study of Mus musculus with 24 samples.

Results

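The genes described here are 8 genes of cartilage formation, 3 Sox transcription factors (Sox9, Sox5 and Sox6) and 5 genes of the cartilage matrix (Acan, Hapln1, Matn1, Matn4 and Comp), each with every probe annotated to its symbol. They are 8 of the 19057 genes named on the array and hold 22 of its 45281 probes. RNA of the mandibular prominence, the part of the first pharyngeal arch that forms the lower jaw, was hybridised to 24 Illumina bead arrays of 1 colour, with 1 embryo per array. There were 8 groups of 3: p63-/- and p63+/- embryos at each of the embryonic stages E10, E11, E12 and E13. Both genotypes carry the Trp63tm2Brd allele of the strain B6.129S7-Trp63tm2Brd/J. The p63-/- embryos have it on both chromosomes and come from crosses within that strain, and the p63+/- embryos have it on 1, so every genotype difference is against heterozygotes and not against wild type. The allele is constitutive, tissue was not pooled, and each group drew its 3 embryos from separate litters.

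Cartilage forms when mesenchymal cells condense and switch on a matrix program. Sox9 starts and maintains that program in chondrocytes, and Sox5 and Sox6 act with it on enhancers of matrix genes. The matrix is built from type II collagen and aggrecan, which binds hyaluronan through link protein, and is bridged by matrilins and by Comp. In the lower jaw this program builds Meckel's cartilage, the rod of neural crest origin around which the mandible forms. p63 (gene Trp63) is a transcription factor best known from stratified epithelia. The comparison asks whether the cartilage genes of the prominence followed the same course in p63-/- as in p63+/- embryos.

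Values are normalized log2 intensities, on which 1 unit is a 2-fold difference. A probe counted as detected where its detection p-value was under 0.05, and the lowest detected signal of an array lay between 5.35 and 5.70. Each gene is given by its brightest probe, and levels of different probes cannot be compared. Arrays detected 43.35% to 48.98% of the probes, and 12698 genes were tested. The Trp63 probe read 8.97 to 9.89 on the 12 p63-/- arrays and 10.19 to 11.32 on the 12 p63+/- arrays, with no overlap (difference -1.32, SE 0.12, limma adjusted p = 6.33e-07). Every p63-/- group had 3 of 3 arrays detected, with means of 9.23 to 9.60, so Trp63 signal was lower there but not absent. The replicate number of a sample is used below only to name arrays and to set same-numbered arrays of a stage side by side. The labels speak of littermates but do not say that a number marks a litter. The sample codes in the labels are consecutive for the same-numbered samples of all 12 pairs, with no word on what a code stands for. Each slide carried a single stage, so the effects of slide and of stage cannot be told apart. At the later 3 stages every p63-/- array was placed ahead of every p63+/- array on its slide, so placement and genotype cannot be told apart there, whereas at E10 the genotypes were interleaved. E10 p63-/- replicate 3 stands apart from the rest: the mean of 9 visceral yolk sac endoderm genes reached 13.39 on it, against 5.75 to 6.37 on the E10 p63+/- arrays. Leaving it out changed no call of the 8 genes in a genotype comparison.

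Of the 8 genes, 7 were measured. Comp, a pentameric glycoprotein of cartilage and tendon matrix, has 2 probes, both undetected on all 24 arrays, with values between 4.56 and 5.50. Its level is therefore bounded by the background of the array and is not used further. Type II collagen itself (Col2a1) was read on all 24 arrays at a mean of 12.19, and Barx1, a homeobox gene of first arch mesenchyme, on all 24 at a mean of 12.11. Acan was detected on 7 arrays and Matn1 on 7. The readings are of RNA from the whole prominence, with part of the cartilage matrix genes near background at the earlier stages.

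**Figure D1:**
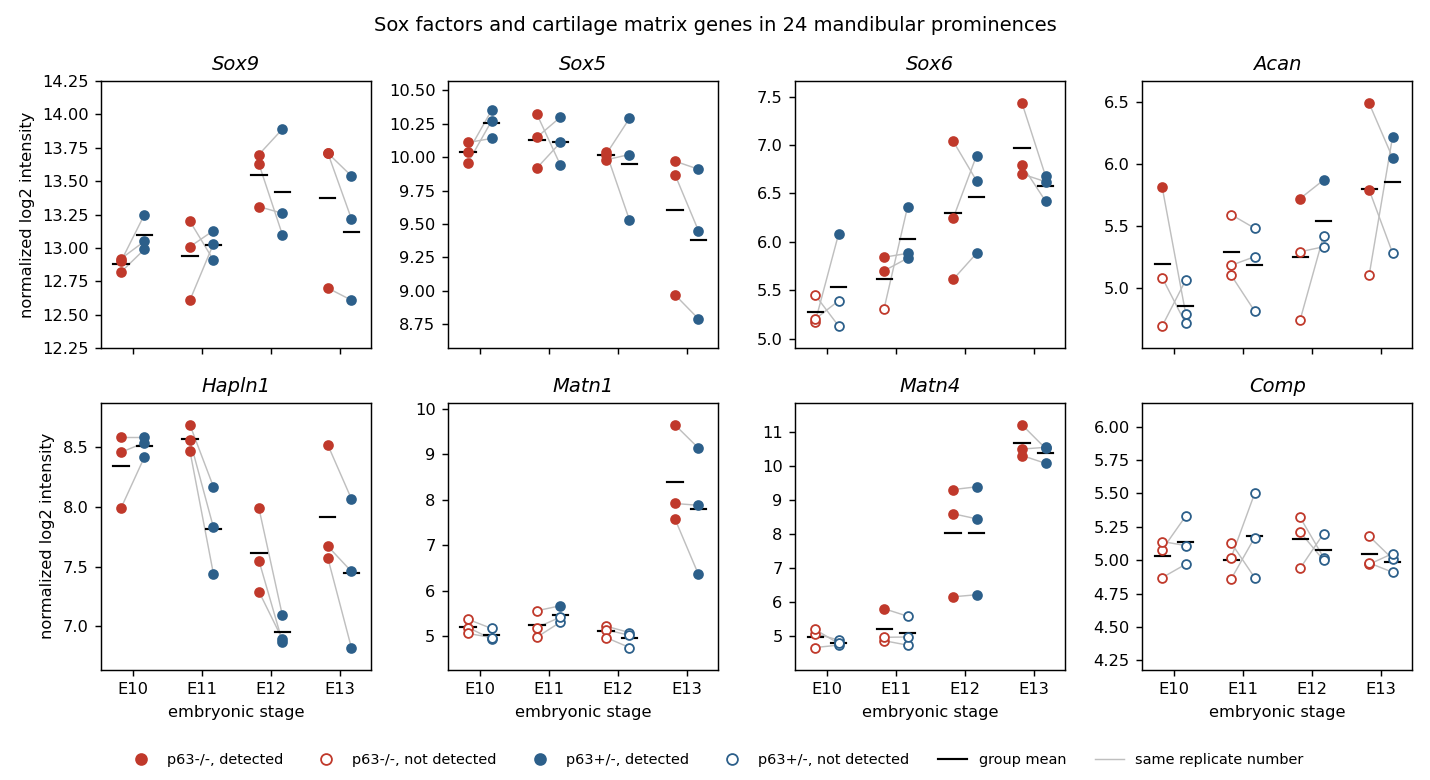
Normalized log2 intensity (vertical axis, scaled per gene) of the brightest probe of each gene on 24 arrays by embryonic stage, with p63-/- embryos in red on the left and p63+/- embryos in blue on the right of each stage. Open points are below detection, black bars are means of 3 arrays, grey lines join same-numbered arrays. Matn4 leaves background at E12 and Matn1 at E13 in both genotypes, Hapln1 is higher in every p63-/- embryo than in every p63+/- embryo at E11 and E12, and Comp is never detected.

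Both matrilins left background in both genotypes over these stages, the brightest Matn4 probe at E12 and the Matn1 probe at E13. Levels of different probes cannot be compared, so which gene came on first cannot be told from these readings. The matrilins are adaptor proteins that link collagen fibrils to proteoglycans; Matn1 is largely restricted to cartilage, and Matn4 is found more widely. By E13 Matn4 was at least 33-fold higher than at E10 in p63-/- prominences and at least 27.3-fold higher in p63+/- prominences, and Matn1 at least 6.8-fold and at least 4.56-fold higher. The word "at least" is used where the gene was not detected on any array of the dimmer group. For the dimmer group, the bound takes on each array the array's lowest detected signal, or the value of the probe where that is higher.

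At E10 Matn4 read 4.66, 5.07 and 5.19 on the p63-/- arrays and 4.73, 4.88 and 4.78 on the p63+/- arrays. At E11 it read 4.86, 4.96 and 5.80 in p63-/- and 4.73, 4.97 and 5.58 in p63+/- embryos. Only p63-/- replicate 3 was above detection among these 12 arrays. At E12 Matn4 was detected on all 6 arrays, at 8.59, 9.30 and 6.15 in p63-/- and 8.44, 9.38 and 6.21 in p63+/- embryos. The genotypes overlapped closely at E12, while both replicate 3 arrays lay far below the other 4. At E13 the gene read 10.30, 11.20 and 10.49 in p63-/- and 10.07, 10.51 and 10.54 in p63+/- embryos, above every E12 array.

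Matn4 rose between E12 and E13 by 2.65 in p63-/- (SE 0.66, adjusted p = 0.0116) and by 2.36 in p63+/- embryos (adjusted p = 0.0192), and between E11 and E12 by 2.80 (adjusted p = 0.0126) and 2.92 (adjusted p = 0.0138; at least 5.26-fold). The E13 minus E10 difference was 5.68 in p63-/- (SE 0.66, adjusted p = 1.15e-06) and 5.58 in p63+/- embryos (adjusted p = 1.89e-06). These 2 calls held with each of the 24 arrays left out, but the calls between neighbouring stages did not. The E11 to E12 rise of Matn4 missed the threshold without E11 p63-/- replicate 2, E12 p63-/- replicate 1 or E12 p63-/- replicate 2 (highest adjusted p = 0.0864) and without E11 p63+/- replicate 2, E12 p63+/- replicate 1 or E12 p63+/- replicate 2 (highest 0.0878). The E12 to E13 rise of Matn4 was 1.72 without E12 p63-/- replicate 3 (adjusted p = 0.0891) and 1.46 without E12 p63+/- replicate 3 (adjusted p = 0.131), and in p63+/- it also missed the threshold without E13 replicate 1 or 2 (adjusted p = 0.0512 and 0.0576). Its 2 dimmer probes gave E13 minus E10 differences of 2.62 and 2.51 in p63-/- and 2.56 and 2.25 in p63+/- embryos, all past the threshold. Neither dimmer probe passed it between E11 and E12.

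Matn1 stayed at background through E12: over the 18 arrays from E10 to E12 it read 4.75 to 5.67, and only E11 p63+/- replicate 3 (5.67) was detected. At E13 it was detected on all 6 arrays, at 7.58, 9.65 and 7.92 in p63-/- and 6.36, 9.14 and 7.88 in p63+/- embryos. The genotypes overlapped, and replicate 2 was the highest array of each. Matn1 rose between E12 and E13 by 3.27 in p63-/- (SE 0.49, adjusted p = 0.000423; at least 7.45-fold) and by 2.84 in p63+/- embryos (adjusted p = 0.000763; at least 4.94-fold). From E10 to E13 its differences were 3.18 (adjusted p = 2.44e-05) and 2.76 (adjusted p = 0.000117). Matn1 has 1 probe.

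The 250 bases before the annotated starts of both matrilins are shown because these are the genes with the largest changes here (RefSeq windows, build GRCm38.p6). The Matn1 window is chr4:130944135-130944384 on the plus strand, and the Matn4 window is chr2:164405161-164405410 on the minus strand, the first of 2 for that gene. Neither holds a Sox core, searched as AACAAT on both strands, nor the TATA box TATAAA.
Matn1: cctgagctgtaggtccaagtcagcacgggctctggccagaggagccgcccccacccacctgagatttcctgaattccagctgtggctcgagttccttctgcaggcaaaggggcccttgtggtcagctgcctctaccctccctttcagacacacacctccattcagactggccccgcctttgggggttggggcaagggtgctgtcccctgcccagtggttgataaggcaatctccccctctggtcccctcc
Matn4: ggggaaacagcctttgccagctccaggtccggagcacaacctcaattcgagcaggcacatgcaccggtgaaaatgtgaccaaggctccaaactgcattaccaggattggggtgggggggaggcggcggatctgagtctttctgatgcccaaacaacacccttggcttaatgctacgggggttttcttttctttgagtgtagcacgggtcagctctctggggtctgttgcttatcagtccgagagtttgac
Windows were found for 6 of the 8 genes, 12 in all. Of these 12, 1 holds the Sox core, a Sox6 window shown with that gene, against 9.42% of all 32851 windows. The TATA box was in 1 of 12, against 12.4%. A match describes letters only, and a window without one says nothing about binding elsewhere.

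The product of the aggrecan gene Acan is the large proteoglycan that gives cartilage its resistance to compression. The brightest Acan probe stayed near background, while the other, given below, left it at E13. The used probe was detected on 7 of 24 arrays. At E10 Acan read 5.08, 5.81 and 4.69 in p63-/- and 4.71, 4.79 and 5.06 in p63+/- embryos, and at E11 5.18, 5.59 and 5.10 against 5.25, 5.48 and 4.81. It was detected on 1 array of these 12, E10 p63-/- replicate 2. At E12 Acan read 5.29, 5.72 and 4.74 in p63-/- and 5.33, 5.87 and 5.42 in p63+/- embryos. At E13 the values were 5.79, 6.49 and 5.10 in p63-/- and 5.28, 6.05 and 6.22 in p63+/- embryos, with 2 of 3 detected in each genotype. Acan was higher at E13 than at E10 in p63+/- (1.00, SE 0.34, adjusted p = 0.0192; at least 1.19-fold), while in p63-/- embryos the difference was 0.60 (adjusted p = 0.146).

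Its other probe, close in brightness and detected on 8 arrays, passed the threshold in both genotypes, at 1.76 in p63-/- (adjusted p = 1.04e-05) and 1.28 in p63+/- embryos (adjusted p = 0.000306). That probe was detected on no E10 array and on 3 of 3 arrays of each genotype at E13. Its E13 means were 6.59 in p63-/- and 6.09 in p63+/- embryos. The brightest Acan probe lost its call in p63+/- without E10 replicate 1 or 2 or E13 replicate 2 or 3 (highest adjusted p = 0.0835), and gained one in p63-/- without E10 replicate 2 (0.91, adjusted p = 0.0412) or E13 replicate 3 (0.94, adjusted p = 0.0285).

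Link protein, encoded by Hapln1, ties aggrecan to hyaluronan. Its probe was detected on all 24 arrays, and it followed another course than the matrilins: in p63+/- embryos Hapln1 was 1.06 lower at E13 than at E10 (SE 0.28, adjusted p = 0.00331). At E10 it read 8.59, 8.46 and 7.99 in p63-/- and 8.59, 8.54 and 8.42 in p63+/- embryos. At E11 the values were 8.56, 8.69 and 8.47 in p63-/- and 7.83, 8.17 and 7.44 in p63+/- embryos. The genotypes overlapped at E10 and did not at E11, where each p63-/- array was above each p63+/- array. At E12 Hapln1 read 7.55, 7.29 and 7.99 in p63-/- and 6.87, 6.89 and 7.09 in p63+/- embryos, again without overlap. At E13 it read 7.57, 8.52 and 7.67 in p63-/- and 6.82, 8.07 and 7.46 in p63+/- embryos, where the ranges overlapped although each p63-/- array was above the p63+/- array of its number.

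Hapln1 was the member with the largest genotype difference in proportion to its error, but it did not pass the test across all genes. The difference p63-/- minus p63+/- was -0.17 at E10 (adjusted p = 0.85), 0.76 at E11 (SE 0.28, adjusted p = 0.576), 0.66 at E12 (adjusted p = 1) and 0.47 at E13 (adjusted p = 1). Averaged over the stages it was 0.43, or 1.35-fold higher in p63-/- (SE 0.14, 95% interval 0.14 to 0.72, limma adjusted p = 0.166). The p63-/- array was higher in 10 of 12 same-numbered pairs, and in 9 of 9 from E11 to E13. The 10 include the pair of E10 replicate 1, where the rounded difference was 0.00. Without E13 p63+/- replicate 2 the average was 0.51 and passed the threshold (adjusted p = 0.0456). With the replicate number as a block, Hapln1 passed on the average (0.43, SE 0.07, adjusted p = 0.00538) and at E11 (0.76, SE 0.14, adjusted p = 0.0332), where that fit called 3.02% and 0.764% of all genes. It did not pass at E12 (adjusted p = 0.101) or E13 (adjusted p = 0.454) with the block.

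No difference in timing between the genotypes was called for Hapln1 (interaction of genotype with stage, adjusted p = 1). In p63-/- embryos it fell between E11 and E12 by 0.96 (SE 0.28, adjusted p = 0.0286). In p63+/- embryos the differences were -0.70 between E10 and E11 (adjusted p = 0.195) and -0.86 between E11 and E12 (adjusted p = 0.0539). The p63-/- call was lost without E11 p63-/- replicate 1 or 2 or E12 p63-/- replicate 1 or 2 (highest adjusted p = 0.139). The p63+/- difference between E11 and E12 passed the threshold in 6 of 24 runs with 1 array left out: without E10 p63-/- replicate 3, E11 p63+/- replicate 3, E12 p63-/- replicate 3, E13 p63-/- replicate 2 or E13 p63+/- replicates 1 or 2 (lowest adjusted p = 0.0356). Between E10 and E13 the p63-/- difference was -0.43 (adjusted p = 0.199) and passed without E13 p63-/- replicate 2 (-0.73, adjusted p = 0.0347). The difference between genotypes in E13 minus E10 was 0.63 (95% interval -0.19 to 1.46, adjusted p = 0.876).

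No neuron marker passed the genotype test at E11 (0 of 6 measured of 8 listed, 1 at an unadjusted p under 0.05), but their mean level differed there between the arrays: over Stmn2, Elavl3, Elavl4, Isl1, Pou4f1 and Gap43 it was 7.84 to 9.23 on the p63-/- arrays and 7.08 to 7.28 on the p63+/- arrays. At E12, where the Hapln1 arrays also did not overlap, that mean was 7.62 to 10.09 in p63-/- and 7.57 to 10.43 in p63+/- embryos. At E10, where the Hapln1 arrays did overlap, it was 7.65 to 8.18 in p63-/- and 7.31 to 7.52 in p63+/- embryos. The part of nerve tissue in the Hapln1 difference was not tested. RNA came from whole prominences, so fewer cells of a type and less RNA per cell cannot be told apart in any of these results.

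**Figure D2:**
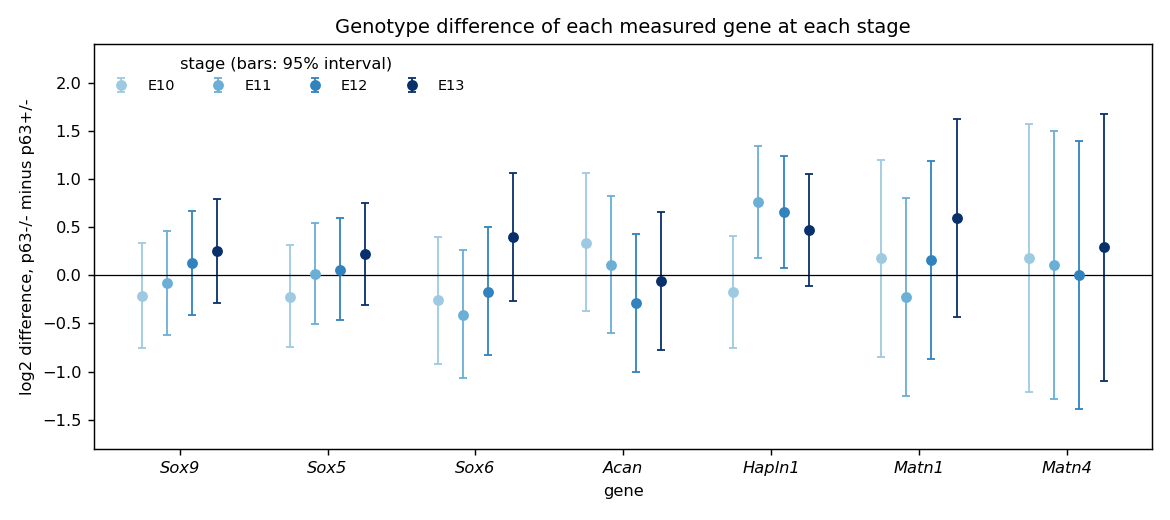
Log2 difference p63-/- minus p63+/- (vertical axis) of the 7 measured genes (horizontal axis) at E10, E11, E12 and E13, light to dark; points are estimates from 3 against 3 arrays and bars are 95% intervals. The intervals of Hapln1 at E11 and E12 lie above 0, those of the other genes include 0, and no gene passes the threshold after adjustment over 12698 genes.

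Sox9 is the factor that commits mesenchymal cells to cartilage. It was bright on all 24 arrays, from 12.61 to 13.89. At E10 Sox9 read 12.92, 12.82 and 12.90 in p63-/- and 13.05, 12.99 and 13.25 in p63+/- embryos, and at E11 12.61, 13.01 and 13.20 against 13.03, 13.13 and 12.91. At E12 the values were 13.63, 13.70 and 13.31 in p63-/- and 13.10, 13.89 and 13.26 in p63+/- embryos, and at E13 12.70, 13.71 and 13.71 against 12.61, 13.22 and 13.54. The genotypes did not overlap at E10, where p63-/- was lower by a log2 difference of -0.21 (SE 0.26, adjusted p = 0.773), and overlapped at the later stages. Replicate 1 was the lowest E13 array of both genotypes.

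Group means of Sox9 ran, from low to high, 12.88 ± 0.05 at E10, 12.94 ± 0.30 at E11, 13.37 ± 0.58 at E13 and 13.55 ± 0.21 at E12 in p63-/- embryos (SD, n = 3). In p63+/- embryos they were 13.02 ± 0.11 at E11, 13.09 ± 0.14 at E10, 13.12 ± 0.47 at E13 and 13.42 ± 0.42 at E12. No step between neighbouring stages passed the test in either genotype. The E13 minus E10 difference was 0.49 in p63-/- (SE 0.26, adjusted p = 0.114) and 0.03 in p63+/- embryos (adjusted p = 0.938). In p63-/- it was 0.83 and passed without E13 p63-/- replicate 1 (adjusted p = 0.00774). The second Sox9 probe, between 9.20 and 10.70, gave -0.27 in p63-/- and -0.55 in p63+/- embryos, neither past the threshold, so the probes do not share a direction in p63-/-.

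Sox5 and Sox6, the SoxD factors that bind DNA beside Sox9 and lack a transactivation domain of their own, moved in opposite directions with stage. Sox5 read 10.11, 10.04 and 9.96 in p63-/- and 10.14, 10.35 and 10.27 in p63+/- embryos at E10, again with no overlap. At E11 it read 9.92, 10.15 and 10.32 against 10.11, 10.30 and 9.94 in p63+/-, and at E12 10.04, 10.02 and 9.98 against 9.53, 10.29 and 10.02. At E13 Sox5 read 8.97, 9.87 and 9.97 in p63-/- and 8.79, 9.45 and 9.91 in p63+/- embryos. Replicate 1 was again the lowest E13 array of both genotypes.

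Sox5 fell between E10 and E13 in p63+/- embryos by 0.87 (SE 0.25, adjusted p = 0.00673). In p63-/- embryos the difference was -0.43 (adjusted p = 0.151). Without E13 p63+/- replicate 1 the p63+/- difference was -0.57 and missed the threshold (adjusted p = 0.0618). Between E12 and E13 it was -0.57 in p63+/- embryos (adjusted p = 0.122) and passed without E13 p63+/- replicate 3 (-0.83, adjusted p = 0.0306). Sox5 has 6 probes, and all 5 that were detected fell past the threshold in p63+/- (from -0.83 to -1.19, highest adjusted p over all probes 0.00691). In p63-/- embryos all 5 were lower as well (from -0.18 to -1.02), and 3 of 5 passed. The sixth was not detected on any array.

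Sox6 stood near background at E10, at 5.17, 5.20 and 5.45 in p63-/- and 6.08, 5.39 and 5.13 in p63+/- embryos, with 1 of 6 arrays detected. At E11 it read 5.84, 5.70 and 5.31 in p63-/- and 5.88, 5.83 and 6.36 in p63+/- embryos. At E12 Sox6 read 7.04, 6.24 and 5.61 against 6.63, 6.89 and 5.88 in p63+/-, detected on all 6 arrays. At E13 the values were 7.43, 6.79 and 6.70 in p63-/- and 6.68, 6.42 and 6.62 in p63+/- embryos, each p63-/- array above each p63+/- array. That genotype difference was 0.40 (SE 0.32, adjusted p = 1) and did not pass.

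Sox6 rose between E10 and E13 in both genotypes, by 1.70 in p63-/- (SE 0.32, adjusted p = 0.000167; at least 2.56-fold) and by 1.04 in p63+/- embryos (adjusted p = 0.00957). The p63+/- call was lost without E10 p63+/- replicate 3 (0.84, adjusted p = 0.0542). Between E11 and E12 the p63-/- difference was 0.68 (adjusted p = 0.147) and passed without E12 p63-/- replicate 3 (1.02, adjusted p = 0.0334). Between E12 and E13 it was 0.68 (adjusted p = 0.137) and passed without E12 p63-/- replicate 1 (1.05, adjusted p = 0.0346). Only 1 of its 5 probes was detected on any array. The Sox6 window that holds the Sox core, the fifth of 6, is chr7:115824711-115824960 on the minus strand. It is shown because it is the window of these genes with that motif, with capitals marking the core and its reverse complement.
Sox6: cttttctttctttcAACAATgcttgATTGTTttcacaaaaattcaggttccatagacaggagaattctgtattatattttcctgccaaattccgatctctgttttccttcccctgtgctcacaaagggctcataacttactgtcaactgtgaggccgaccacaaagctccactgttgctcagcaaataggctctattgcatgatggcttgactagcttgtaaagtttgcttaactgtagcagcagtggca

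Without the replicate block, none of the 7 measured genes passed the threshold in a genotype comparison at any stage. With it, 1 of 7 passed at E11 and on the average, in both cases Hapln1 as given above. The background share of all genes was 0.795% at E10, 0.512% at E11, 0.299% at E12 and 0.307% at E13, so a list of 7 would hold few calls in any case. For the average over stages it was 2.35%, for the interaction of genotype with stage 0.0158%, and for the difference between genotypes in E13 minus E10 0.0709%, again with 0 of 7 called. At an unadjusted p under 0.05, 1 of 7 stood out at E11 and 1 at E12, both Hapln1, and none at E10 or E13. The 7 averages over stages ran from -0.11 (Sox6) to 0.43 (Hapln1), with a median of 0.03 against -0.01 for all genes. The 95% intervals of the 6 genes other than Hapln1 include 0, and a p that misses the threshold does not show that levels are equal.

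Groups without overlap were counted too. At E10 this held for 2 of 7 genes, Sox9 and Sox5, both lower in p63-/-, against 18.2% of all genes in either direction. At E11 and E12 it held for 1 of 7, Hapln1, against 9.45% and 6.95%. At E13 it held for 1 of 7, Sox6, against 7.88%. With 7 genes measured, 1 gene is the smallest count above 0, so the counts of 1 are not set apart from the background. The 2 of 7 at E10 stood beside the highest background of the 4 stages and were not tested against it.

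Stage moved a large share of all genes. Between E10 and E13 the p63-/- embryos had 3 of 7 past the threshold (Sox6, Matn1 and Matn4 higher), against 55.9% of all genes (27.4% higher and 28.5% lower). The p63+/- embryos had 6 of 7 (Sox6, Acan, Matn1 and Matn4 higher, Sox5 and Hapln1 lower), against 53.3% (25.3% higher and 28.0% lower). These counts take the brightest probe of each gene. In p63-/- embryos the other Acan probe also passed as higher, and 3 dimmer Sox5 probes as lower. The median member difference was 0.60 in p63-/- and 1.00 in p63+/- embryos, against -0.04 and -0.05 for all genes. Between E10 and E11 none passed in either genotype (6.36% of all genes in p63-/- and 1.43% in p63+/-). Between E11 and E12, 2 of 7 passed in p63-/- (Hapln1 and Matn4, against 14.5%) and 1 of 7 in p63+/- embryos (Matn4, against 10.1%). Between E12 and E13, Matn1 and Matn4 passed in both (18.5% in p63-/- and 18.6% in p63+/-). The difference in call counts between the genotypes is not a difference in change: the test of E13 minus E10 between genotypes called 0 of 7, with estimates from -0.40 (Acan) to 0.66 (Sox6, 95% interval -0.28 to 1.60).

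The spread between embryos of 1 group was itself large for some genes, and was shared by same-numbered arrays of both genotypes. At E12 the means of the same-numbered Matn4 pairs spanned 3.16, or 8.94-fold, while the 2 arrays of a pair differed by at most 0.15. For Matn1 at E13 the span was 2.43, or 5.38-fold, and the largest difference in a pair 1.22. At E13 the spans were 0.97 for Sox9, 1.06 for Sox5 and 1.10 for Hapln1. Across the 12691 other genes, the E12 replicate 3 arrays deviated from their group toward E11, with correlations along E13 minus E11 of -0.60 in p63-/- and -0.48 in p63+/-. The E12 replicate 2 arrays deviated toward E13 (0.49 and 0.52) and replicate 1 lay between (0.15 and 0.13). The low Matn4 of the replicate 3 arrays thus stood beside lower values of many genes that rise with stage.

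Within groups, Sox9 and Sox5 deviated from their group means together. Over 24 arrays the deviations had a Pearson correlation of 0.92 and a Spearman correlation of 0.83. Without the 2 arrays farthest out (E13 p63-/- replicate 1 and E13 p63+/- replicate 1) Pearson's r was 0.86, and over the 18 arrays from E10 to E12 it was 0.79. Same-numbered arrays deviated together at E12 and E13 (correlations 0.25 to 0.63 over all genes), and each group mean is set by its own arrays. These are thus not 24 independent points, and the pair was picked out of 21 after their values were seen. Hapln1 and Matn1 had the next highest value (0.72).

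**Figure D3:**
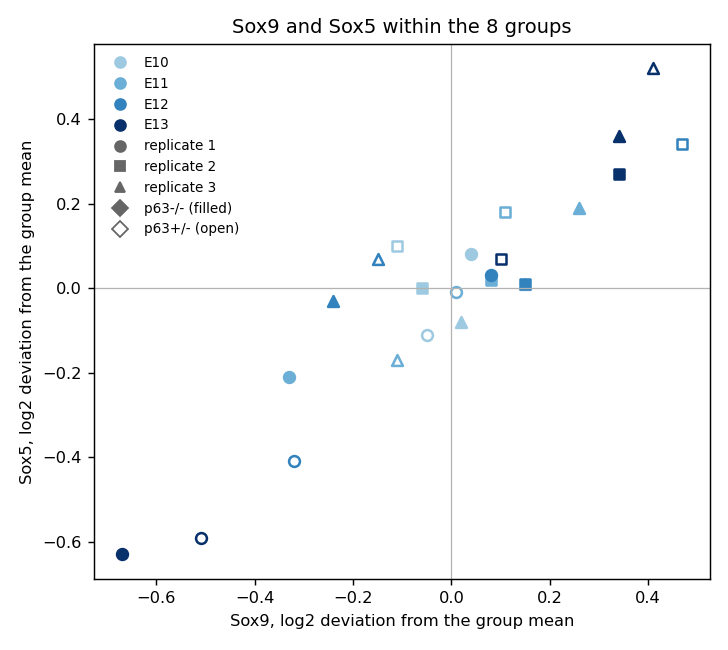
Deviation of Sox5 (vertical axis) against that of Sox9 (horizontal axis) from the mean of their group, in log2 units, for 24 arrays; colour gives the stage, shape the replicate, filled points p63-/- and open points p63+/- embryos. The 2 arrays at the lower left are the E13 replicate 1 arrays of both genotypes, and the points without them still run upward (r = 0.86).

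The genes most like each member across the 24 arrays were named by Pearson's r, which mixes stage, slide and embryo and is given as a description. Matn4 was most like Mia (0.99), a small secreted protein of chondrocytes, Gdf10 (0.98) and Igfbp3 (0.98). Matn1 was most like Chad (0.92), the cartilage leucine-rich repeat protein chondroadherin, Lbhd2 (0.91) and Adh7 (0.90). For Sox6 the 3 were Tbc1d23, Nfat5 and Cyp2j9 (0.91 each), and for Sox5 Ess2 (0.91), Tbc1d7 (0.89) and Leo1 (0.88). Values were lower for Hapln1 (Nfe2l3, 0.88, Pfkl, 0.82, and Dok5, 0.81), Sox9 (Clip3, 0.81, Zfp574, 0.79, and Tox, 0.76) and Acan (Jak2, 0.76, C1qtnf4, 0.75, and Lrrc8c, 0.75).

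Of 25 other cartilage genes measured, 13 were higher and 4 lower at E13 than at E10 in p63-/- embryos, and 12 higher and 6 lower in p63+/- embryos. Of all genes, 27.4% were higher and 28.5% lower in p63-/-, and 25.3% higher and 28.0% lower in p63+/-. The median difference was 0.79 in p63-/- and 0.28 in p63+/-, against -0.04 and -0.05 for all genes. The count of lower genes was 1 or 2 in p63-/- when E10 p63-/- replicate 1 or 2 or E13 p63-/- replicate 1 was left out, and 3 in p63+/- when E10 p63+/- replicate 2 or E13 p63+/- replicate 1 was. The largest rises were those of Mia (3.94 in p63-/- and 3.64 in p63+/-), and Cytl1, a small chondrogenic cytokine, which was at least 5.84-fold higher in p63-/- and at least 5.24-fold higher in p63+/- embryos. Snorc, a chondrocyte membrane proteoglycan, was at least 2.84-fold and at least 2.62-fold higher, and Chad at least 1.47-fold and at least 1.31-fold higher. Col9a2, a chain of type IX collagen, rose by 1.70 in p63-/- and 1.98 in p63+/-. The other type IX chains did not follow it. Col9a3 fell by 1.30 in p63-/- (adjusted p = 1.91e-05) and by 0.93 in p63+/- (adjusted p = 0.000547), under every alternative tried. Col9a1 fell by 0.98 in p63+/- (adjusted p = 0.00485) and by 0.67 in p63-/- (adjusted p = 0.0418). The p63-/- call of Col9a1 was lost without E10 p63-/- replicate 1 or 2 or E13 p63-/- replicate 1 or 3 and under 5 other alternatives (highest adjusted p = 0.232). Its second probe was lower in both genotypes (-1.11 in p63-/-, adjusted p = 0.00566, and -1.34 in p63+/-, adjusted p = 0.00144). The dimmest Col9a1 probe was higher in p63-/- (0.70, adjusted p = 0.0111). Trps1, a GATA-type repressor, rose by 1.62 in p63-/- and 1.15 in p63+/-. Papss2, which makes the sulfate donor for proteoglycans, rose by 1.96 and 2.58.

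Not all cartilage genes rose. Nkx3-2, a homeobox repressor that acts within the early chondrogenic and jaw joint program, fell by 1.06 in p63-/- (adjusted p = 0.0398) and by 1.05 in p63+/- embryos (adjusted p = 0.0442). The Nkx3-2 calls were lost in p63-/- without E10 p63-/- replicate 1 or 2 or E13 p63-/- replicate 1 (highest adjusted p = 0.171), and in p63+/- without any 1 of 9 arrays (highest 0.157): E10 p63+/- replicates 1, 2 and 3, E13 p63+/- replicates 1 and 2, E11 p63-/- replicate 2, E11 p63+/- replicate 1, E12 p63-/- replicate 2 and E12 p63+/- replicate 3. They were also lost with no detection filter in both genotypes (adjusted p = 0.0562 in p63-/- and 0.0626 in p63+/-), with the mean of probes in p63-/- (adjusted p = 0.11) and with the authors' values in p63+/- (adjusted p = 0.0566). The second Nkx3-2 probe did not pass (-0.63 in p63-/-, adjusted p = 0.269, and -1.11 in p63+/-, adjusted p = 0.0566). Col2a1 differed by 0.04 in p63-/- and by -0.32 in p63+/- embryos and did not pass. Against those shares of all genes, in both genotypes 9 of 9 skeletal muscle genes, 4 of 4 osteoblast genes and 4 of 5 tendon and ligament genes were higher at E13, and 6 of 6 proliferation genes and 5 of 7 erythroid genes were lower. Of 3 Schwann lineage and glia genes 1 was higher, and of 6 neuron genes 1 was higher in both genotypes and 1 lower in p63+/-, counts near or below the share of all genes. The 9 yolk sac genes were all lower in p63-/- and none was called in p63+/-. Without E10 p63-/- replicate 3, the array with the high yolk sac mean, 2 of 9 were lower in p63-/-. That count was 5, 5 and 3 without E13 p63-/- replicate 1, 2 or 3. None of these genes passed in the genotype average, and none of the yolk sac genes did in the difference between genotypes in E13 minus E10. Against the same shares, of 7 epithelial genes 5 were lower and 1 higher at E13 in p63-/-. In p63+/- embryos 4 of the 7 were lower and 2 higher.

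**Figure D4:**
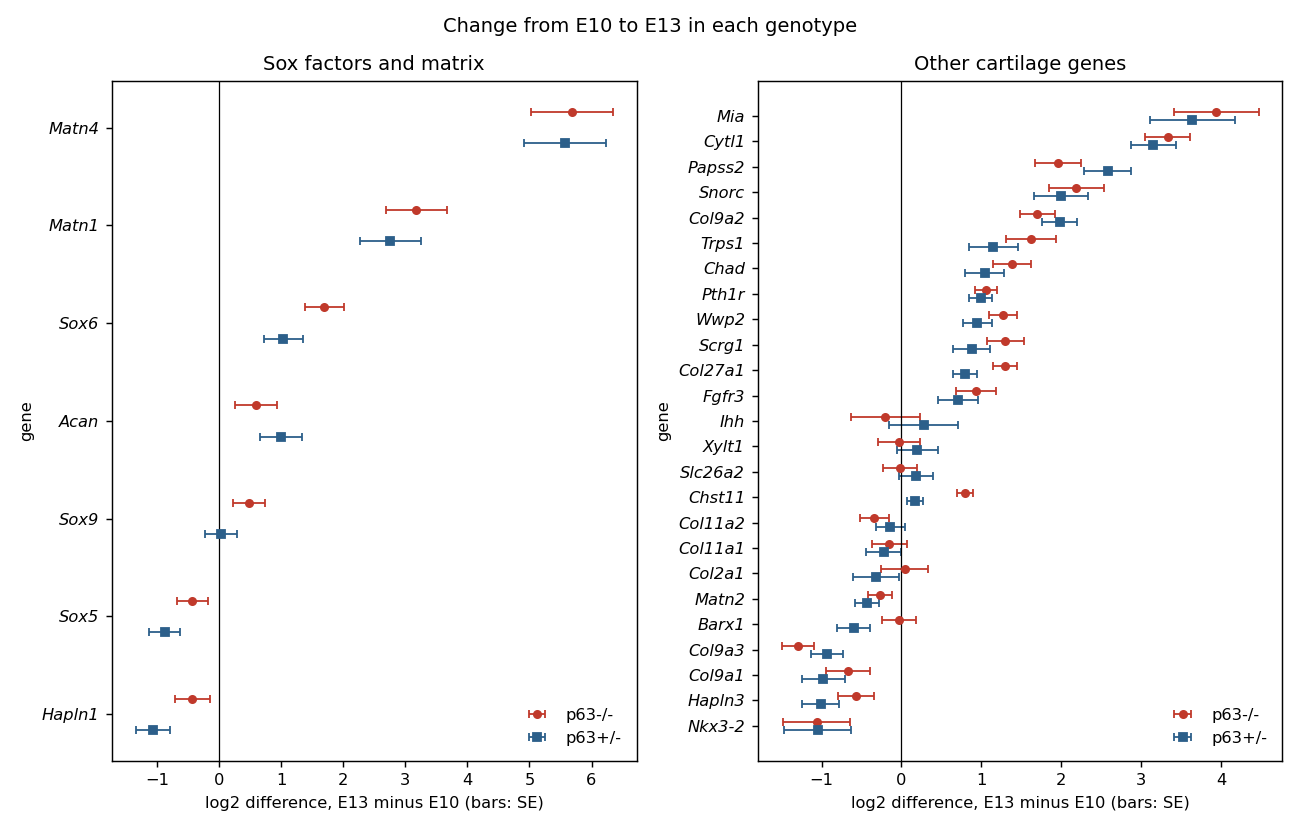
Log2 difference E13 minus E10 (horizontal axis) of the 7 measured genes (left) and of 25 other cartilage genes (right), for p63-/- (red circles, upper) and p63+/- embryos (blue squares, lower); bars are SE. Matn4, Matn1, Mia and Cytl1 lie farthest to the right in both genotypes, and for genes undetected at E10, among them Matn1, Matn4, Cytl1, Snorc and Chad, the true difference may be larger than drawn.

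Among the 25, 2 genes of proteoglycan sulfation differed between genotypes on the average over stages, in opposite directions. Papss2 was 0.93 higher in p63-/- (SE 0.14, adjusted p = 0.000506), and Chst11, the sulfotransferase that places sulfate on chondroitin chains, was 0.54 lower (log2 difference -0.54, SE 0.05, adjusted p = 1.31e-06). Against a background of 1.35% of all genes higher and 1.00% lower, that is 1 of 25 in each direction. Papss2 at E11 read 8.60, 8.53 and 8.48 in p63-/- and 6.83, 7.04 and 7.11 in p63+/- embryos, a difference of 1.55 (adjusted p = 0.0131). At E10, where the genotypes are interleaved on the slide, it read 8.30, 7.45 and 7.90 in p63-/- and 6.72, 7.03 and 6.90 in p63+/- embryos. The genotypes do not overlap at either stage, although the E10 difference of 1.00 did not pass (adjusted p = 0.115). It passed with the replicate number as a fixed block (adjusted p = 0.0356, 1.61% of all genes called) and as a random block (adjusted p = 0.0297). At E13 the difference was 0.38. Papss2 missed the threshold at E11 when E11 p63-/- replicate 1 or 2 or E11 p63+/- replicate 1 was left out (highest adjusted p = 0.0965), and with the authors' values (0.72, adjusted p = 0.101).

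Chst11 read 6.09, 6.18 and 6.20 in p63-/- and 7.10, 6.95 and 7.08 in p63+/- embryos at E10 (difference -0.89, adjusted p = 6.57e-05), and 6.02, 6.18 and 6.33 against 6.82, 6.73 and 6.77 at E11 (difference -0.60, adjusted p = 0.00656). At E13 it read 6.94, 7.08 and 6.81 in p63-/- and 7.13, 7.34 and 7.18 in p63+/- embryos, a difference of -0.28 (adjusted p = 1). The E11 call of Chst11 was lost with no background correction, the authors' values, the mean of its probes or the compared arrays alone (adjusted p 0.0531 to 0.14). The gap thus narrowed with stage, but the change in it was not past the threshold (0.62, adjusted p = 0.27). Its dimmer probe gave -0.32 on the average (adjusted p = 0.112). The second Papss2 probe gave 0.62 and passed (adjusted p = 0.00185). Neither enzyme is particular to cartilage. Of 7 epithelial genes measured, 3 were higher in p63-/- (Krt8, 1.83, Krt18, 1.80, and Cldn6, 0.97) and 2 lower (Krt14, -2.24, and Krt5, -1.70). The part of epithelial RNA in the Papss2 and Chst11 differences was not tested.

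The 11 other Sox genes measured gave 1 call on that average, where 2.35% of all genes were called: Sox21, 0.52 higher in p63-/- (SE 0.12, adjusted p = 0.0182), which was lost with the authors' values (adjusted p = 0.0794) and with the mean of its probes (adjusted p = 0.0906). With the replicate block Sox2 also passed on the average (0.31, adjusted p = 0.0359), Sox10 at E10 (-1.94, adjusted p = 0.0171, against 0.0517 without the block) and Sox21 at E11 (1.02, adjusted p = 0.0232, against 0.0635). Sox8, the closest relative of Sox9 beside Sox10, rose from E10 to E13 in both genotypes (1.33 in p63-/- and 1.21 in p63+/-). Sox10, which marks neural crest and glia, rose by 5.17 in p63-/- and by 3.19 in p63+/- embryos. At E10 the mean of the 3 Schwann lineage and glia genes, Sox10 among them, was 4.87 to 5.17 on p63-/- arrays. It was 5.59 to 5.82 on p63+/- arrays, and the lowest detected signals were 5.35 to 5.70. The Sox10 differences that involve E10 may thus start near background, and their sizes are uncertain. Sox13, the other SoxD gene, fell by 1.48 in p63-/- and by 1.50 in p63+/- embryos. That is the direction of Sox5, whose brightest probe passed in p63+/- only. The brightest of them, Sox11 and Sox12, differed between genotypes by -0.12 and 0.00 on the average, neither past the threshold.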

How the data were processed

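Groups and replicate numbers came from the sample labels. For each probe and array the authors deposited a raw intensity, not below 64.3 and unscaled between arrays, with its detection p-value. A second deposited table has log2 values, whose medians are 7.92 to 7.93 on the arrays, and was used as an alternative. The submitters' processing notes list BeadStudio, lumi and RMA, with neither version nor order.

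From the intensities, neqc in limma 3.58.1 (R 4.3.3) subtracted background estimated from the detection p-values, added an offset of 16, quantile-normalized and took log2. A probe stayed if 3 or more arrays detected it at p under 0.05 (24233 of 45281, and 15 of the 22 probes of the 8 genes), and the brightest probe stood for a gene. In GEO's platform annotation 34885 probes have 1 symbol, and the 18 with several were left unnamed. Group means of 12698 genes were fitted with lmFit and eBayes (16 residual and 2.96 prior degrees of freedom) without a replicate block. Benjamini-Hochberg adjustment ran over all these genes, at a threshold of 0.05. The fit was tested on simulated data. With 3 arrays per group, their number limits the precision.

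Same-numbered arrays deviated together at E12 and E13 (correlations 0.25 to 0.63 over all genes), so the numbers count as pairs there. At E10 and E11 the correlations were weaker (0.04 to 0.20) and do not settle whether the numbers mark pairs. The 8 genes, the lists and the rule for named genes were chosen with earlier results of these data known. The rule took Trp63, the 8 genes, the 8 other cartilage genes with the largest E13 minus E10 change in p63+/-, cartilage genes past the threshold in a genotype comparison, and of each other list its 2 brightest genes and those past it in the genotype average, of which only part are printed. Col2a1, Col9a1, Col9a3, Sox2, Sox8, Sox10 and Sox13 were named after their values were seen.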

Additional observations from a re-analysis of the deposited data

How the results depend on the processing

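Of 1008 member values under the alternatives other than leaving out 1 array, 984 kept their direction and side of the threshold where they were called, 6 lost a call (5 of them with the compared arrays alone), 18 gained one and none reversed with a call. The alternatives were no background correction, an offset of 50, the authors' processed values, no or a strict detection filter (p under 0.01 on at least 6 arrays), all probes, the mean of a gene's probes, array weights, the compared arrays alone and a replicate block, fixed or random. The count of members called in the genotype average was 1 in place of 0 with array weights, with the replicate block and with the random replicate block. Each time this was Hapln1, and the cause was not tested. The correlations bear out the replicate block at E12 and E13 and leave it unsettled at E10 and E11. With that block, Hapln1 gave 0.43 on the average (SE 0.07, adjusted p = 0.00538) and passed at E11 (1 member called, adjusted p = 0.0332). With the random replicate block the average had an adjusted p of 0.0364, and with array weights it was 0.48 (adjusted p = 0.0441). In 11 of 12 pairs the deviations correlated best with their own number, a hint from the data, beside the consecutive sample codes of the labels, and the block changed no other member call of a genotype comparison. Array weights gave 4 calls between E12 and E13 in either genotype and 5 between E10 and E13 in p63-/-; the mean of probes also gave 5 there. With the compared arrays alone, which leave fewer arrays to estimate the spread, 0 passed between E11 and E12 in p63-/- and 1 between E12 and E13 in either genotype. Between E11 and E12 in p63+/-, the authors' values gave 0, and array weights and the random replicate block gave 2. With 1 array left out, counts ran from 0 to 1 for the average, 0 to 3 for E11 to E12 and 1 to 3 for E12 to E13 in p63-/-, 3 to 4 for E10 to E13 in p63-/-, and 0 to 2, 1 to 3 and 5 to 6 for these in p63+/-. The other cartilage genes were checked after seeing the data: 11 to 14 were higher and 1 to 4 lower at E13 in p63-/-, and 10 to 14 higher and 3 to 6 lower in p63+/-. Dim probes limit Acan, Matn1, Matn4 and Sox6 at E10, where changes are compressed, and Comp throughout.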
